A study of Homo sapiens with 12 samples.

Results

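The comparison set Caco-2 cells of the TLR4-D299G line against Caco-2 cells of the TLR4-WT line, taking 3 arrays titled for each line and the difference of their mean log2 values at every probe set. These are 6 of the 12 arrays of the series. Caco-2 is an established human colon carcinoma line that takes on features of small-intestinal enterocytes when it is grown past confluence, and that also makes many proteins usually secreted by the liver. The TLR4-WT cells had been transfected with an HA-tagged plasmid for wild-type Toll-like receptor 4. The TLR4-D299G cells had received the same construct carrying the D299G substitution, an exchange of aspartate for glycine in the extracellular part of the receptor. Transfection used 1 µg of plasmid per well, stable clones were selected with 1 µg/ml blasticidin, and all cells were grown for 8 days before RNA was taken. A TLR4-T399I line made in the same way and untransfected cells without exogenous DNA, with 3 arrays each, are given beside the main comparison.

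TLR4 recognises bacterial lipopolysaccharide together with the secreted partner MD-2 (LY96) and the carrier CD14. It signals through the adaptor MYD88 to NF-kB and through TRIF (TICAM1) to interferon regulatory factors. Intestinal epithelial cells normally carry little of the receptor, and D299G and T399I are common human variants of it that have been linked to altered responses to lipopolysaccharide.

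Several features limit these lines as a model of the substitution. The labels describe selected clones, so the substitution cannot be told apart from any other difference between the lines. There was no empty-vector line, the promoter of the plasmid is not given in the labels, and the cells keep their own TLR4 gene. Whether the 3 RNA samples of a line were separate cultures or clones is not given in the labels, so p-values reflect only how far these samples spread, and that spread may be technical. The cells are 1 line in culture, and for any gene, fewer cells expressing it and less RNA per cell cannot be told apart.

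Both lines carried TLR4 transcript far above untransfected cells. TLR4 read 8.62, 8.71 and 8.49 on the WT arrays and 8.81, 8.89 and 8.73 on the D299G arrays (log2 RMA values, as are all levels below). The groups did not overlap, but the difference of 0.20 ± 0.12 (SE) did not pass the test (adjusted p = 0.328, 95% confidence interval -0.06 to 0.46; limma with Benjamini-Hochberg adjustment over all probe sets, as throughout). TLR4 read 8.34 ± 0.05 in T399I and 4.83 ± 0.27 in untransfected cells (mean ± SD, n = 3, as throughout). Neither the HA tag nor the substitution can be read from these probes. LY96 lay near the bottom of the scale in both lines (3.46 ± 0.08 to 3.49 ± 0.17, WT and D299G), below 5.20, the lowest lower quartile of any array. CD14 read 7.62, 7.64 and 7.81 on the WT arrays and 7.56, 7.51 and 7.39 on the D299G arrays, with a difference of -0.20 ± 0.10 (SE) that did not pass (adjusted p = 0.258).

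The lines differed at many genes, mostly by small amounts. Of 33297 probe sets, 5618 (16.9%) were called at an adjusted p under 0.05, with 2615 higher and 3003 lower in D299G. A change of at least 2-fold was called at 440 probe sets, of which 302 were higher, and a change of at least 4-fold at 58 higher and 8 lower. With 1 probe set per named gene, 2090 of 18417 genes were higher (11.3%) and 2161 were lower (11.7%), and the median difference of all genes was 0.00. By at least 2-fold, 252 genes were higher (1.37%) and 79 were lower (0.429%). These shares are the background for every gene list below. The 3 arrays of the lines did not overlap at 42.7% of genes, so non-overlap by itself is common here. In the same fit 19.1% of genes were called in D299G against T399I, 43.3% in D299G against untransfected cells and 38.3% in WT against untransfected cells. The principal component that carried the most variance of the 6 arrays (57.5%) separated the lines, and array correlations were 0.9942 to 0.9957 within WT, 0.9951 to 0.9959 within D299G and 0.9872 to 0.9895 between them.

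The largest rises included genes of secreted plasma proteins and of detoxification, and the largest falls genes of digestion, transport and nitrogen metabolism. A2M encodes alpha-2-macroglobulin, a plasma inhibitor that traps proteases. A2M read 8.07, 7.70 and 7.91 on the WT arrays and 11.75, 11.69 and 11.83 on the D299G arrays. Every D299G array lay above every WT array, a rise of 14.6-fold (3.86 ± 0.10 (SE) on the log2 scale, adjusted p = 5.19e-09), and the level was 6.81 ± 0.03 in T399I and 7.97 ± 0.17 in untransfected cells. The next largest rises were in TF, which encodes the iron carrier transferrin (12.6-fold), the long non-coding RNA UCA1 (12.1-fold), UGT2B4 (10.4-fold), the chitinase-like protein gene CHI3L1 (10.1-fold) and CYP3A5 (9.96-fold). SI encodes sucrase-isomaltase, the brush border enzyme that splits sucrose and starch fragments. SI read 9.07, 8.96 and 8.87 on the WT arrays and 4.60, 4.72 and 4.79 on the D299G arrays. This fall of 19.2-fold (adjusted p = 4.28e-09) was the largest in either direction, and since SI in D299G was under the lower quartile of every array, where the share of background in the signal is not known, the fold may understate the change. CPS1, the entry enzyme of the urea cycle, followed with 12.05, 11.84 and 11.80 on the WT arrays and 8.83, 8.92 and 8.82 on the D299G arrays, a fall of 8.22-fold (adjusted p = 5.19e-09).

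**Figure D1:**
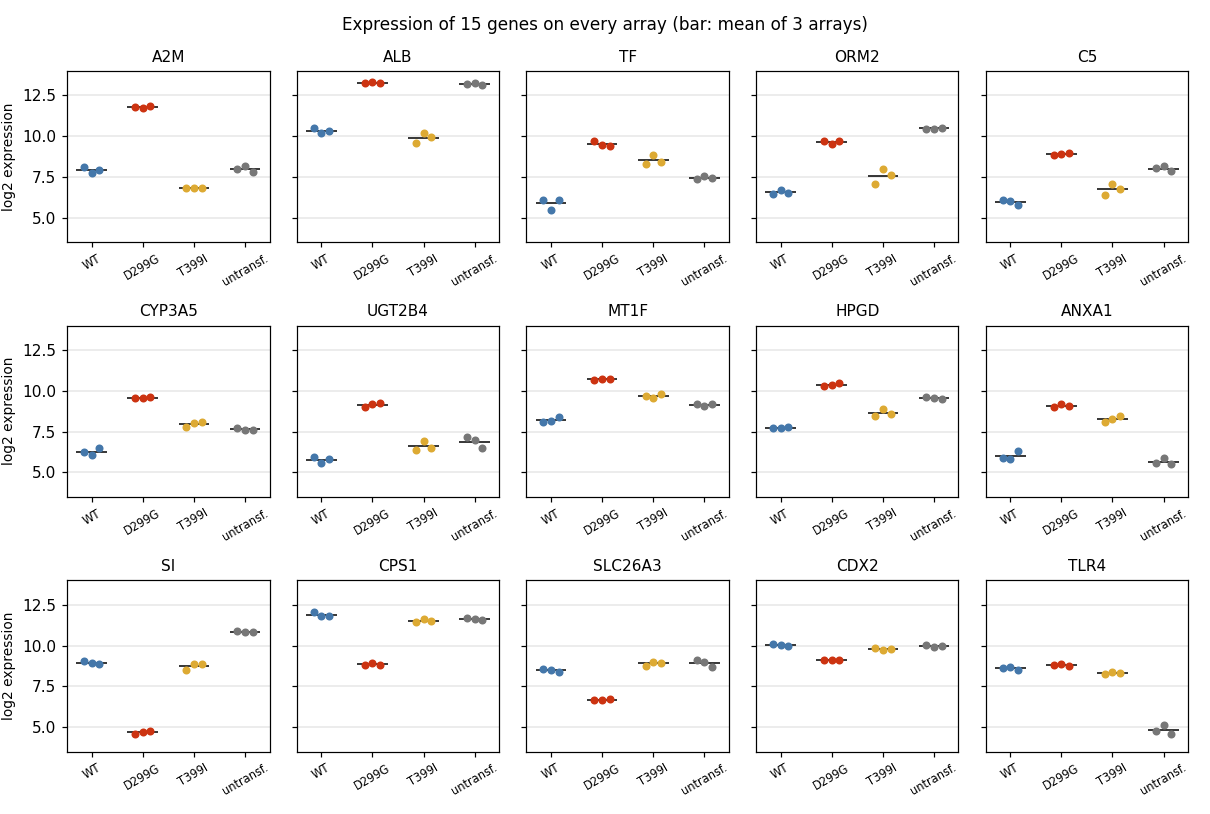
Log2 expression of 15 genes on each of the 12 arrays (vertical axis), by line (horizontal axis), with 1 point per array and a bar at the mean of 3 arrays. A2M, CYP3A5 and HPGD were higher on every D299G array than on every other array, SI, CPS1, SLC26A3 and CDX2 lower, while ALB in D299G lay with untransfected cells and TLR4 was high in all transfected lines.

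Many genes of plasma proteins rose, as the counts of each list below show. In an organism the liver makes most of these proteins: albumin carries fatty acids and hormones, acute-phase proteins change with inflammation, and coagulation and complement factors circulate as inactive precursors. ALB (albumin) read 10.46, 10.19 and 10.28 on the WT arrays and 13.22, 13.29 and 13.24 on the D299G arrays. The D299G arrays lay far above the WT arrays (7.67-fold, adjusted p = 1.86e-07) and beside untransfected cells (13.21 ± 0.06), whereas T399I (9.89 ± 0.33) lay with WT. AFP, the fetal counterpart of albumin, did not pass (12.77 ± 0.08 to 13.05 ± 0.05, adjusted p = 0.0792), although it did without T399I replicate 1 (adjusted p = 0.0111).

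Of 26 acute-phase proteins and carriers, 14 rose and 0 fell, with a median difference of 0.32 against 0.00 for all genes. ORM2 and ORM1, which encode the drug-binding acid glycoproteins and resemble each other closely in sequence, rose 8.55-fold and 6.79-fold, so their probe sets may share signal. ORM2 read 6.46, 6.67 and 6.48 on the WT arrays and 9.71, 9.51 and 9.68 on the D299G arrays. HPX (hemopexin, a haem carrier) read 7.47, 7.32 and 7.34 on the WT arrays and 9.90, 9.60 and 9.91 on the D299G arrays, a rise of 5.38-fold (adjusted p = 3.00e-07). ITIH2, a heavy chain that binds hyaluronan, rose 6.85-fold, the corticosteroid carrier SERPINA6 3.51-fold and transthyretin (TTR) 2.5-fold. Values for the classical acute-phase genes CRP (5.08 ± 0.04 to 5.12 ± 0.15) and SAA1 (3.53 ± 0.24 to 3.54 ± 0.14) did not pass.

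Of 30 coagulation and fibrinolysis genes, 19 rose and 1 fell (median 0.46). The fibrinogen chains form a hexamer that thrombin turns into fibrin. FGA read 9.74, 9.77 and 9.70 on the WT arrays and 12.00, 11.99 and 12.08 on the D299G arrays, a rise of 4.88-fold (adjusted p = 4.38e-08), FGB rose 2.32-fold and FGG 1.67-fold. Coagulation factor V (F5) rose 4.32-fold, from 7.38 ± 0.14 to 9.49 ± 0.04. The inhibitors of clotting rose as well: TFPI 4.58-fold, antithrombin (SERPINC1) 3.74-fold and heparin cofactor (SERPIND1) 3.12-fold. PROC, the precursor of activated protein C, was the member that fell, from 9.48 ± 0.02 to 8.73 ± 0.33 (adjusted p = 0.00648); without untransfected replicate 3 a second member was called lower, making 2.

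Of 28 complement genes, 19 rose and 2 fell (median 0.53). C5, the source of the anaphylatoxin C5a and of the membrane attack complex, read 6.07, 6.03 and 5.76 on the WT arrays and 8.86, 8.92 and 8.95 on the D299G arrays. Its rise of 7.76-fold (adjusted p = 3.16e-07) went with a level of 6.74 ± 0.33 in T399I and 8.00 ± 0.14 in untransfected cells. CFI, the protease that inactivates C3b, rose 7.59-fold, its cofactor C4BPA 3.38-fold and the central component C3 3.32-fold. The terminal components C6, C7, C8A and C8B also rose, by 0.63, 0.41, 0.77 and 0.49 on the log2 scale, but from WT levels of 4.83 ± 0.10, 4.46 ± 0.03, 5.05 ± 0.11 and 4.78 ± 0.28, all below the lower quartile of the arrays. The call of C6 was lost without any single array of the 2 lines and that of C8B without WT replicate 2 or 3 or D299G replicate 2 or 3 (adjusted p up to 0.122 and 0.108). C2 (-0.39) and C1RL (-0.53) were the members that fell. Of those that rose, C4BPA, C4BPB, CD46 and CD55 lie side by side on chromosome 1.

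Of 21 genes of apolipoproteins and lipoprotein assembly, 10 rose and 2 fell (median 0.26). APOH rose 2.95-fold, APOA4 2.8-fold and APOC3 2.58-fold, and the abundant APOA1 and APOB rose by 0.37 and 0.45 on the log2 scale. MTTP, which loads lipid onto apolipoprotein B, fell instead, from 11.04 ± 0.04 to 10.53 ± 0.04 (adjusted p = 4.76e-04), and read 9.32 ± 0.10 in untransfected cells. Of 32 alpha-2-macroglobulin relatives and protease inhibitors, 9 rose and 4 fell (median 0.06). Kallistatin (SERPINA4) rose 6.82-fold and SERPINF1 2.54-fold, while A2ML1 (0.05) and PZP (-0.13), the closest relatives of A2M, did not pass. SERPINA4 lies on chromosome 14 beside SERPINA1, SERPINA3, SERPINA5, SERPINA6 and SERPINA10 of the lists above. From IFI27L2 to SERPINA3, 8 of 8 genes above the median level rose, and genes at lower levels were not counted. This stretch was found only with windows of 10 genes, and it is not among the runs of neighbouring genes described below. Its median against untransfected cells was 0.28 in D299G and -0.60 in WT. The count of 4 lower members became 2 without any single array of the 2 lines other than WT replicate 2.

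Iron genes did not move as a group, with 4 of 24 higher and 5 lower. TF read 6.07, 5.44 and 6.10 on the WT arrays and 9.72, 9.46 and 9.39 on the D299G arrays. The rise was 12.6-fold (adjusted p = 3.72e-07), and D299G lay above T399I and untransfected cells too (8.53 ± 0.29 in T399I and 7.45 ± 0.09 in untransfected cells). The zinc and iron importer SLC39A8 rose 3.27-fold. Ceruloplasmin (CP), the ferroxidase of plasma, fell 1.85-fold, and the intestinal iron importer SLC11A2 and ferroxidase HEPH fell by 0.55 and 0.51 on the log2 scale.

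HNF1 factors bind many liver and gut promoters, and the letters of their site were searched for in the promoters of these plasma protein genes. RefSeq promoter windows (GRCh38.p14, 250 bases before to 50 after the start) were at hand for 84 of 108 such genes. The letters GTTAATNAT, on either strand, were found in 6 of the 84 (7.14%) and in 0.792% of all 35116 windows. The genes were AFP, ALB, C4BPA, F13B, FGA and PLG, of which AFP was not called and the others rose, PLG not without WT replicate 1 or 2 or D299G replicate 2 (adjusted p 0.0537 to 0.0839). The 100 bases before the start of ALB (chr4:73404187-73404286, plus strand) and FGA (chr4:154590743-154590842, minus strand), chosen as called members of the albumin and fibrinogen genes with this match, are shown 5′ to 3′ along the gene with the match in capitals. In ALB it starts 61 bases before the start, and in FGA it lies on the opposite strand, from 55 bases before the start.
ALB: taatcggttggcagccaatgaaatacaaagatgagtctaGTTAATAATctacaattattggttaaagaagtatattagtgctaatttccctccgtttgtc
FGA: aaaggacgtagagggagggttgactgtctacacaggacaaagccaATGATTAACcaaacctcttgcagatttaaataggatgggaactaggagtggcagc
A match is a description of letters, not evidence of binding, and the windows of HPX, F5 and C5, which rose, hold none.

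**Figure D2:**
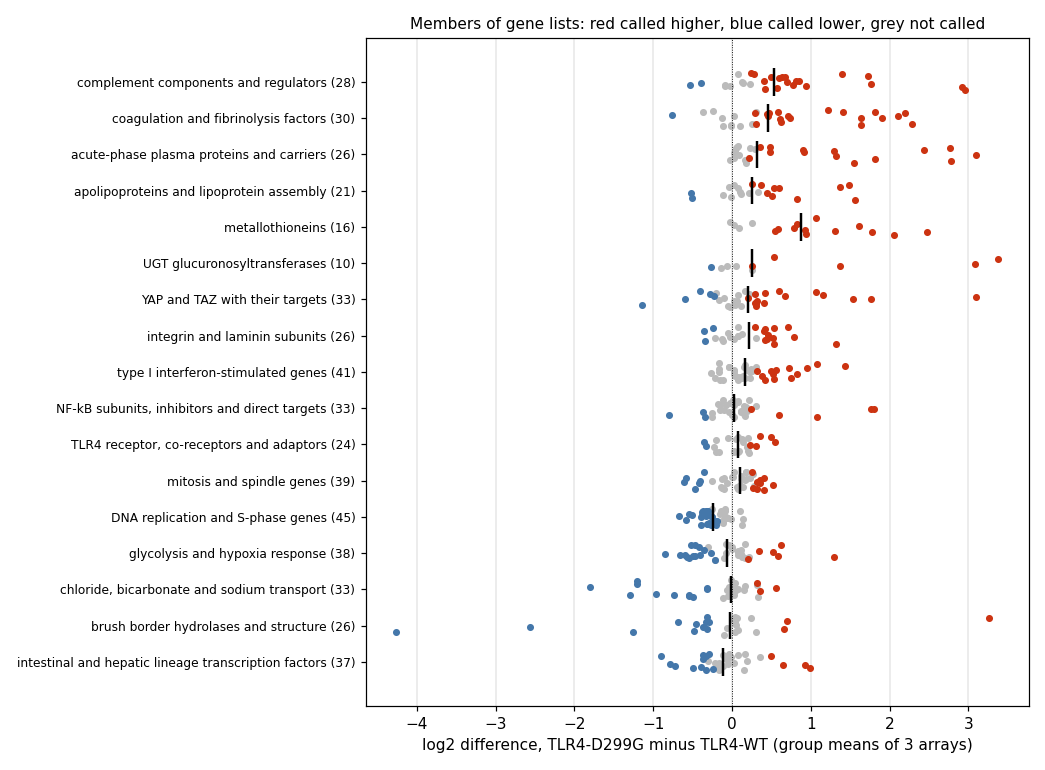
Log2 difference of D299G minus WT (horizontal axis) for each measured member of 17 gene lists (vertical axis, number of members in brackets), with red for called higher, blue for called lower, grey for not called and a black bar at the list's median. Complement and metallothionein medians lie at 0.53 and 0.87, and DNA replication at -0.24.

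Genes of drug and steroid clearance rose in part. Cytochromes P450 oxidise lipophilic compounds and UGT enzymes attach glucuronic acid to them for export. Of 10 UGT and related genes, 5 rose and 1 fell. UGT2B4 read 5.94, 5.57 and 5.80 on the WT arrays and 8.98, 9.20 and 9.27 on the D299G arrays and rose 10.4-fold (adjusted p = 7.28e-07). UGT2B10 rose 8.46-fold and UGT2B7 2.59-fold, while UGT2B17 (-0.06) and UGT2B28 (0.25) did not pass. The single lower call became 0 without any 1 array of the 2 lines other than D299G replicate 2. These genes are close in sequence and cluster on chromosome 4, so signal may be shared between their probe sets.

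Of 34 cytochrome P450 and related genes, 7 rose and 4 fell. CYP3A5 read 6.24, 6.09 and 6.48 on the WT arrays and 9.59, 9.57 and 9.60 on the D299G arrays. Its rise was 9.96-fold (adjusted p = 2.19e-08), and D299G was above T399I and untransfected cells as well (7.96 ± 0.17 in T399I and 7.63 ± 0.10 in untransfected cells). CYP1A1, a target of the aryl hydrocarbon receptor, rose 2.39-fold, CYP2J2 fell 1.71-fold, and CYP3A4 (4.05 ± 0.06 to 4.43 ± 0.30) did not pass. Of 26 efflux and organic anion transporters, 7 rose and 3 fell, led by the hepatic uptake carriers SLCO1B3 (6.59-fold, from a WT level of 4.14 ± 0.38 below the lower quartile) and SLC10A1 (3.6-fold).

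Of 39 aldo-keto reductases, glutathione genes and NRF2 targets, 17 rose and 3 fell (median 0.22). AKR1C3, which reduces steroids and prostaglandins, rose 4.25-fold, while its near copy AKR1C2 fell 1.49-fold. NOX1, the superoxide-producing oxidase of colon epithelium, read 10.70, 10.68 and 10.75 on the WT arrays and 12.02, 11.99 and 11.97 on the D299G arrays, a rise of 2.43-fold (adjusted p = 1.14e-06), beside 10.28 ± 0.10 in T399I and 8.19 ± 0.13 in untransfected cells. Direct NRF2 targets were mixed, with NQO1 called at 0.33 and GCLM (0.36), HMOX1 (0.15) and TXNRD1 (0.09) not passing (GCLM did without T399I replicate 1, adjusted p = 0.0492).

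Metallothioneins rose as a family. They are small cysteine-rich proteins that hold zinc and copper, and their genes are switched on by zinc through the factor MTF1. Of 16 measured genes of the list, which adds MTF1 and zinc transporters to the family, 12 rose and 0 fell, with a median difference of 0.87. MT1F read 8.11, 8.15 and 8.40 on the WT arrays and 10.66, 10.71 and 10.74 on the D299G arrays, a rise of 5.59-fold (adjusted p = 3.69e-08), beside 9.68 ± 0.11 in T399I and 9.16 ± 0.09 in untransfected cells. MT1X rose 4.14-fold, MT1H 3.43-fold, MT1E 3.05-fold and MT2A 2.49-fold. MT2A has 3 probe sets, and the log2 difference was 1.31 at the one used, 1.22 at another and 3.63 at the dimmest, so its size is uncertain. The zinc exporter SLC30A1, itself an MTF1 target, rose 1.77-fold, while MTF1 (0.09), MT3 (-0.03) and MT4 (0.26) did not pass. The MT1 genes are near copies next to each other on chromosome 16, so the rise of any single member is less certain than that of the family.

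Metal response elements were searched for because these genes rose together. The core letters TGCNCNC, on either strand, occurred at least 4 times in the window of each of the 5 metallothionein genes with a RefSeq promoter (MT1B, MT1H, MT1X, MT2A and MT4), against 2.94% of all windows. At least 1 match was found in 55.9% of all windows. The 170 bases before the start of MT1X (chr16:56682300-56682469, plus strand) and MT2A (chr16:56608414-56608583, plus strand) hold 4 and 6 matches, shown in capitals.
MT1X: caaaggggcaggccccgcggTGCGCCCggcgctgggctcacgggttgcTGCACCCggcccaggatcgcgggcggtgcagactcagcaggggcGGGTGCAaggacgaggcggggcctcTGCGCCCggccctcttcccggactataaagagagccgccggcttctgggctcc
MT2A: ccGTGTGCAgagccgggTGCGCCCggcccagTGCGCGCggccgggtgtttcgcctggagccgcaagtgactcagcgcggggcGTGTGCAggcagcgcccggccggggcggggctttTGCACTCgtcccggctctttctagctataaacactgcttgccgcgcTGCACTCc
The window of MT4 holds 6 matches, and MT4 did not pass the test.

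Prostaglandin genes changed in both synthesis and breakdown. PLA2G2A and PLA2G4A release arachidonic acid, PTGS2 (COX-2) turns it into prostaglandin H2, and HPGD inactivates prostaglandins. Of 22 members, 5 rose and 3 fell. HPGD read 7.70, 7.71 and 7.77 on the WT arrays and 10.27, 10.37 and 10.45 on the D299G arrays, a rise of 6.22-fold (adjusted p = 6.73e-08), with 8.64 ± 0.24 in T399I and 9.54 ± 0.07 in untransfected cells. PLA2G2A rose 5.95-fold, AKR1C3 4.25-fold and PLA2G4A 2.44-fold, the last from a WT level of 4.07 ± 0.02 below the lower quartile. PTGS2 read 5.73, 5.81 and 5.52 on the WT arrays and 7.35, 7.61 and 7.42 on the D299G arrays. That rise over WT was 3.42-fold (adjusted p = 9.16e-06), and the level was 5.26 ± 0.30 in untransfected cells. The receptor PTGER2 fell 1.64-fold, and the constitutive enzyme PTGS1 (-0.04) did not pass.

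Of 33 NF-kB subunits, inhibitors, kinases and targets, 5 rose and 3 fell, and the median was 0.03. CCL20, a chemokine that draws dendritic cells and T cells to the epithelium, read 7.13, 6.88 and 7.10 on the WT arrays and 8.69, 8.88 and 8.93 on the D299G arrays. The rise was 3.47-fold (adjusted p = 2.11e-06) and the level was 6.74 ± 0.21 in T399I and 6.15 ± 0.12 in untransfected cells. IER3 rose 2.11-fold and the feedback inhibitor TNFAIP3 1.52-fold, while the neutrophil chemokines CXCL1 and CXCL2 fell by 0.37 and 0.80 on the log2 scale. The call of CXCL1 was lost without any single WT array, D299G replicate 1 or 2 or untransfected replicate 1 (adjusted p 0.0506 to 0.136). The 3 lower members became 1 without any of these arrays other than D299G replicate 1. CXCL8 (6.06 ± 0.09 to 6.18 ± 0.15), TNF (5.89 ± 0.10 to 5.91 ± 0.08), IL6 (4.75 ± 0.04 to 4.76 ± 0.18) and NFKBIA (8.80 ± 0.01 to 8.73 ± 0.03) did not pass. Of 24 genes of the receptor, its partners and adaptors, 5 rose and 2 fell, all by less than 2-fold. UNC93B1 rose by 0.54, TOLLIP by 0.49 and TRAF6 by 0.31, and IRAK1 and SIGIRR fell, at -0.33 and -0.36 (log2 differences). UNC93B1, TOLLIP, TRAF6 and SIGIRR lie on chromosome 11, where more genes were higher than lower (below). IRAK1 lies in a stretch of chromosome X where most genes above the median level were lower (below). MYD88 (-0.20, adjusted p = 0.051) missed the threshold, and passed without T399I replicate 1 or untransfected replicate 2 (adjusted p 0.0398 and 0.0444). TICAM1 (0.03) did not pass. The 5 higher members became 3 without any single array of the 2 lines other than D299G replicate 1, and the other probe sets of UNC93B1 read log2 differences of 0.11 and 0.07.

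Type I interferon-stimulated genes rose in part and none was called lower: 13 of 41 rose (median 0.16), against 11.3% higher and 11.7% lower among all genes. IFI6, an interferon-induced protein that limits viral replication, read 8.08, 7.86 and 8.15 on the WT arrays and 9.38, 9.41 and 9.63 on the D299G arrays, a rise of 2.72-fold (adjusted p = 9.08e-06), with 8.76 ± 0.14 in T399I and 9.58 ± 0.16 in untransfected cells. HERC5 rose 2.12-fold, MX1 1.93-fold and IFIT1 1.43-fold. ISG15 (0.19), IFIT2 (0.23) and IRF7 (0.15) did not pass. The letters GAAANNGAA, found in interferon response elements, were in 22 of 32 promoter windows of this list (68.8%) and in 8.11% of all windows. They were in 7 of 11 windows of the genes that rose (63.6%) and in 15 of 21 of those not called (71.4%). IFI6 is shown as the member with the largest rise: in the 170 bases before its start (chr1:27672193-27672362, minus strand) they occur 3 times.
IFI6: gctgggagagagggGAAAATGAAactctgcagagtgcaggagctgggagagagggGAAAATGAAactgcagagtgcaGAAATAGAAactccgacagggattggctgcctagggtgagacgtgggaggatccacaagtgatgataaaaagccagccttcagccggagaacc

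Among STAT3 pathway genes and cytokine receptors 10 of 28 rose and 3 fell (median 0.14). SOCS2, which restrains growth hormone and cytokine receptors, rose 3.85-fold, from 6.85 ± 0.02 to 8.80 ± 0.16. STAT3 itself read 9.81, 9.69 and 9.52 on the WT arrays and 10.42, 10.38 and 10.33 on the D299G arrays, a rise of 1.63-fold (adjusted p = 2.72e-04). The receptor genes LIFR, IL1R1, IL6ST and IL6R rose by 1.32, 0.95, 0.37 and 0.31 on the log2 scale, LIFR from 4.59 ± 0.18 below the lower quartile. The call of IL6ST was lost without replicate 1 or 3 of either line and that of IL6R without WT replicate 2 or 3 or D299G replicate 1 or 2 (adjusted p up to 0.0583 and 0.0862), and the 10 higher members became 6 without D299G replicate 1 or WT replicate 3. SOCS3 (-0.00) and PIM1 (-0.08), classical STAT3 targets, did not pass, and BCL6 fell 1.65-fold.

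YAP and TAZ are co-activators that respond to cell shape and density. Of 33 genes of a list that holds both, their partners, their regulators and their targets, 15 rose and 5 fell (median 0.20). ANXA1, a phospholipid-binding protein that limits inflammation, read 5.89, 5.80 and 6.28 on the WT arrays and 8.99, 9.19 and 9.09 on the D299G arrays, a rise of 8.57-fold (adjusted p = 2.07e-07). ANKRD1 rose 2.91-fold, CCN1 2.1-fold and CCN2 1.59-fold, and TGFB2 3.39-fold. Of the co-activators, WWTR1 (TAZ) fell and YAP1 rose (log2 differences -0.41 and 0.20). Of the regulators, LATS2 and AMOT fell (-0.59 and -1.14). LATS2 lies on chromosome 13 and AMOT on chromosome X, both described below. The call of YAP1 was lost without any single array of the 2 lines (adjusted p 0.0608 to 0.0983), and the 15 higher members became 9 without WT replicate 1. Of 26 genes of a list of integrins and laminins, which anchor cells to the basement membrane, 12 rose and 3 fell (median 0.21). ITGA5 rose 1.73-fold. NID1, a nidogen gene on the list that is neither an integrin nor a laminin, rose 2.5-fold. Of 42 epithelial-mesenchymal transition markers, 10 rose and 2 fell. TAGLN rose 4.15-fold and VIM 2.68-fold, and OVOL2, which maintains the epithelial state, fell 1.82-fold. CDH1 (12.29 ± 0.04 to 12.36 ± 0.03) and CDH2 (0.08) did not pass.

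Of 38 TGF-beta and BMP genes, 7 rose and 12 fell (median -0.07). BAMBI, a decoy receptor, rose 3.57-fold, and the receptors TGFBR1, TGFBR2, ACVR2A and BMPR2 and the transducers SMAD2, SMAD3 and SMAD4 fell by amounts between 0.24 (TGFBR1) and 0.71 (ACVR2A, level with SMAD3) on the log2 scale. SMAD2 read -0.35 at the probe set used and -0.73 at its other probe set. The call of TGFBR1 was lost without any single array of the 2 lines other than WT replicate 3 (adjusted p 0.061 to 0.115). SMAD3, SMAD6 and NEO1 lie on chromosome 15, described below. The gap junction gene GJA1 read 7.01, 7.12 and 7.13 on the WT arrays and 9.84, 9.97 and 9.70 on the D299G arrays, a rise of 6.73-fold (adjusted p = 6.65e-07). Of 40 junction and keratin genes, 7 rose and 12 fell, with CLDN1, CLDN2, CLDN3, TJP1 and DSP among those lower (by 0.42, 0.54, 0.43, 0.24 and 0.32). TJP1 lost its call without any single array of the 2 lines other than WT replicate 3 (adjusted p 0.0615 to 0.101) and DSP without D299G replicate 3 (0.0505).

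Of 15 genes of a list of chitinase-like, uroplakin and urothelial genes, written with their rises known, 7 rose and 1 fell (median 0.21). The member that fell was secretagogin (SCGN, -2.08 on the log2 scale), an endocrine cell gene described below that belongs to none of these families. UPK1B, a tetraspanin of the bladder surface, read 6.54, 6.85 and 6.74 on the WT arrays and 9.85, 9.93 and 9.88 on the D299G arrays, a rise of 9.04-fold (adjusted p = 2.19e-08), beside 6.23 ± 0.20 in T399I and 6.51 ± 0.05 in untransfected cells. UCA1 read 7.17, 7.02 and 7.11 on the WT arrays and 10.61, 10.85 and 10.63 on the D299G arrays and CHI3L1 rose 10.1-fold, although T399I was higher still for CHI3L1 (10.04 ± 0.16 against 9.45 ± 0.04 in D299G). UPK1A (0.08) and UPK2 (0.15) did not pass and UPK3A rose by 0.68. Adhesion molecules went both ways, with 10 of 34 higher and 9 lower (median 0.03). ALCAM rose 5.34-fold and NRP1 5.22-fold, while CEACAM5 and CEACAM6, the carcinoembryonic antigens, fell 1.6-fold and 1.98-fold. Of 17 heat shock proteins and co-chaperones, 6 rose, 0 fell and 11 did not pass (median 0.15). HSPB8 rose 6.08-fold, from 6.23 ± 0.21 to 8.83 ± 0.05, and HSPB1 3.48-fold, with BAG3 (0.19) and HSF1 (-0.02) not passing. The 6 became 3 without WT replicate 2, and BAG3 passed without untransfected replicate 3 (adjusted p = 0.048).

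Brush border genes fell in part. The brush border is the microvillar surface on which enterocytes finish the digestion of sugars and peptides. Of 26 members, 11 fell and 3 rose, while the median was -0.02. MGAM2, a relative of maltase-glucoamylase, read 8.68, 8.50 and 8.22 on the WT arrays and 6.10, 5.76 and 5.85 on the D299G arrays, a fall of 5.91-fold (adjusted p = 3.37e-06). MYO1A, the motor that ties the microvillar core to the membrane, fell 2.38-fold, lactase (LCT) 1.61-fold and the peptidase DPP4 1.4-fold. CLTRN, a chaperone of brush border amino acid transporters, went the other way and read 5.77, 5.69 and 5.82 on the WT arrays and 8.96, 9.05 and 9.04 on the D299G arrays, a rise of 9.56-fold (adjusted p = 1.64e-07). Villin (VIL1, 11.70 ± 0.02 to 11.60 ± 0.06), ANPEP (0.01) and ALPI (0.04) did not pass.

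Genes of chloride and bicarbonate transport also fell in part. Of 33 members, 11 fell and 3 rose (median -0.01). SLC26A3, the chloride-bicarbonate exchanger of the colon surface, read 8.56, 8.53 and 8.38 on the WT arrays and 6.65, 6.69 and 6.74 on the D299G arrays, a fall of 3.47-fold (adjusted p = 8.63e-07), with 8.91 ± 0.13 in T399I and 8.92 ± 0.20 in untransfected cells. The sulfate carrier SLC26A2 fell 2.45-fold, the chloride channel CFTR 2.3-fold and the guanylin receptor GUCY2C 2.3-fold. SLC26A3 and CFTR lie on chromosome 7, each in a stretch where most genes above the median level were lower. The potassium channel KCNN4 and the carbonic anhydrase CA12 fell by 0.97 and 0.74 (log2). SLC9A3 (-0.01) and the sodium channel SCNN1A (0.08) did not pass. The 3 higher members became 1 without D299G replicate 2 or WT replicate 3. Of 36 sugar, peptide and amino acid transporters, 8 rose and 5 fell. The glucose carrier SLC2A2 rose 3.63-fold, from 8.05 ± 0.20 to 9.91 ± 0.15, the organic anion carrier SLC17A4 fell 3.52-fold, and the peptide carrier SLC15A1 (0.02) and sodium-glucose carrier SLC5A1 (called, 0.39, but not without WT replicate 2, adjusted p = 0.0517) differed little.

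Among enzymes of nitrogen and amino acid metabolism, 11 of 43 rose and 12 fell. CPS1 and ASS1, both on the route from ammonia to arginine, fell 8.22-fold and 2.05-fold, with ASL (-0.04) and OTC (0.38) not passing (OTC did without untransfected replicate 1, adjusted p = 0.0408). AASS, the lysine-degrading enzyme, read 9.65, 9.88 and 9.62 on the WT arrays and 7.83, 7.52 and 7.71 on the D299G arrays, a fall of 4.08-fold (adjusted p = 3.13e-07). The tryptophan enzymes TDO2 and KYNU rose 3.71-fold and 3.15-fold, TDO2 from a WT level below the lower quartile (5.15 ± 0.24). Of the phosphodiesterases, which break down cyclic nucleotides, 5 of 25 rose and 5 fell. PDE3A read 8.66, 8.65 and 8.52 on the WT arrays and 6.50, 6.05 and 5.76 on the D299G arrays, a fall of 5.68-fold, and PDE10A fell 3.6-fold to a D299G level below the lower quartile (5.03 ± 0.07). PDE5A rose 3.43-fold. The 5 higher members became 3 without D299G replicate 1 or WT replicate 2 or 3.

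Of 24 genes of fatty acid uptake and storage, 8 fell and 5 rose. PPARG, the nuclear receptor of lipid storage, fell 2.3-fold and PPARA 1.85-fold, and ACSL1 rose 3.9-fold. Of 38 glycolysis and hypoxia genes, 14 fell and 6 rose (median -0.06). BNIP3, PDK1 and VEGFA fell by 0.85, 0.60 and 0.41 (log2), ADM rose 2.44-fold, and HIF1A (0.11) and LDHA (0.07) did not pass. Cholesterol synthesis was evenly divided, with 5 of 20 higher and 5 lower; the lower count was 3 without D299G replicate 2 or 3 and 2 without WT replicate 2.

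Of 37 transcription factors of the intestinal and hepatic lineages, 11 fell, 4 rose and 22 did not pass (median -0.12). CDX2, which specifies intestinal epithelium, read 10.10, 10.02 and 9.99 on the WT arrays and 9.14, 9.14 and 9.13 on the D299G arrays, a fall of 1.87-fold (adjusted p = 2.49e-06), with 9.81 ± 0.05 in T399I and 9.99 ± 0.07 in untransfected cells. KLF5, a factor of proliferating crypt cells, fell 1.73-fold and HNF4G 1.65-fold. FOXA1, FOXA2, GATA6 and SOX9 fell by 0.37, 0.33, 0.24 and 0.29 (log2). GATA6 was close to the threshold (adjusted p = 0.048) and lost its call without any single array of the 2 lines, T399I replicate 3 or untransfected replicate 1 (adjusted p 0.0632 to 0.165). PROX1, a factor of liver and endocrine cells, rose 1.89-fold and ESRRG 1.98-fold. CDX1 (-0.04), CEBPA (-0.04) and ONECUT1 (-0.05) did not pass. CDX2 and KLF5 lie on chromosome 13, where most genes above the median level were lower (below).

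Wnt targets and stem cell genes went both ways, with 7 of 32 higher and 10 lower. DKK1, a secreted Wnt inhibitor, rose 3.2-fold, and ASCL2, LGR5, MYC and CCND1 fell (log2 differences -0.60, -0.39, -0.31 and -0.43), while AXIN2 (0.17) did not pass. TFF2 and TFF3, the trefoil peptides of mucus, fell 3.01-fold and 2.27-fold. Secretagogin (SCGN), a calcium-binding protein of endocrine cells, read 11.34, 11.38 and 11.29 on the WT arrays and 9.28, 9.22 and 9.28 on the D299G arrays, a fall of 4.22-fold (adjusted p = 5.19e-09).

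DNA replication genes fell in part, each by a small amount. Of 45 replication and S-phase genes, 25 fell and 0 rose, with a median difference of -0.24 and no change of 2-fold. The MCM proteins form the replicative helicase: MCM2, MCM3, MCM4, MCM6 and MCM7 fell, with log2 differences of -0.39, -0.27, -0.32, -0.51 and -0.31, and MCM5 (-0.13) did not pass. The 25 became 15 without D299G replicate 3 and 16 without WT replicate 2, and MCM3 was not called without WT replicate 1 or D299G replicate 2 or 3 (adjusted p 0.0518 to 0.054). RFC3, a clamp loader subunit on chromosome 13, read 11.34, 11.26 and 11.26 on the WT arrays and 10.55, 10.69 and 10.62 on the D299G arrays, a fall of 1.59-fold (adjusted p = 3.11e-05). Of the 25, RFC3 was the member on chromosomes 13 or 15.

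Mitosis genes went both ways. Of 39 spindle and mitosis genes, 9 rose and 6 fell (median 0.10), with CENPE, ASPM and CDC20 higher by 0.52, 0.40 and 0.35 and CCNB1 (0.23) and CDK1 (0.06) not passing. The 9 became 4 without D299G replicate 3 or WT replicate 1 and 5 without WT replicate 3. CENPE lost its call without WT replicate 1 or 3 or D299G replicate 2 or 3 (adjusted p up to 0.0769), and CCNB1 passed without T399I replicate 1 (0.0402). Of the 6 that fell, 5 lie on chromosome 15 (BUB1B, CCNB2, KIF23, NUSAP1 and PRC1), with log2 differences of -0.47, -0.35, -0.41, -0.61 and -0.58. MKI67 was the other, at -0.42.

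Markers of the intestinal epithelium and of other cell types were counted in the same way. The epithelial markers EPCAM (12.89 ± 0.04 to 12.84 ± 0.05) and KRT18 (13.39 ± 0.03 to 13.49 ± 0.03) stayed near the top of the scale in both lines, and of 18 epithelial markers 6 fell and 2 rose, CDH17 (-0.74) and TSPAN8 (-0.84) among those lower. Of 19 leukocyte markers 4 rose (LYZ, CD163, CD3D and LCP1), with a summed log2 level of 124.9 to 127.1 in WT and 127.7 to 128.8 in D299G, and PTPRC lay below the lower quartile in both (3.57 ± 0.13 to 3.63 ± 0.03). Of 18 fibroblast markers 5 rose and 1 fell, with a summed level of 104.7 to 106.1 in WT and 108.5 to 109.0 in D299G. PDGFRA rose 2.09-fold, while DCN (3.72 ± 0.07 to 3.82 ± 0.10), COL1A1 (0.12) and COL1A2 (0.03) did not pass. Of 35 goblet and Paneth markers 4 rose and 5 fell, and of 28 enteroendocrine markers 4 rose and 2 fell. The 4 leukocyte markers became 2 without D299G replicate 2 or WT replicate 2, with CD163 lost without any single WT array, D299G replicate 1 or 2 or T399I replicate 2 and LCP1 without WT or D299G replicate 2 (adjusted p up to 0.127 and 0.0565). The 2 lower enteroendocrine markers became 1 without D299G replicate 1 or 3 or WT replicate 1 or 2. The part of other cells in the results was not tested.

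The differences were also arranged along chromosomes. Among 11223 genes with a level above the median of all probe sets, 14.8% were higher and 18% lower in D299G. On chromosome 15, 228 of 343 such genes (66.5%) were lower and 15 were higher, with a median difference of -0.42. On chromosome 13, 116 of 189 (61.4%) were lower and 8 were higher (median -0.36). Chromosome 11 went the other way, with 240 of 695 higher (34.5%) and 34 lower (median 0.15), as did chromosome 1, with 294 of 1103 higher (26.7%) and 46 lower (median 0.10).

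Set against untransfected cells, the chromosome medians show which line stood apart. On chromosome 15 the median over genes was -0.51, -0.49 and -0.51 on the D299G arrays, -0.07, -0.06 and -0.10 on the WT arrays and -0.11, -0.03 and -0.06 on the T399I arrays. The D299G arrays alone were low there. On chromosome 13 they read -0.64, -0.62 and -0.63, WT -0.21, -0.18 and -0.28, and T399I -0.37, -0.23 and -0.28, so all lines were below untransfected cells and D299G the most. On chromosome 11 D299G read 0.12, 0.10 and 0.11 and WT -0.05, -0.06 and -0.07. On chromosome 1 it was WT that differed from untransfected cells (-0.11, -0.12 and -0.13), with D299G at 0.02, 0.01 and 0.01. Over all genes outside chromosomes 13 and 15 the medians lay between 0.00 and 0.03 on the WT and D299G arrays.

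**Figure D3:**
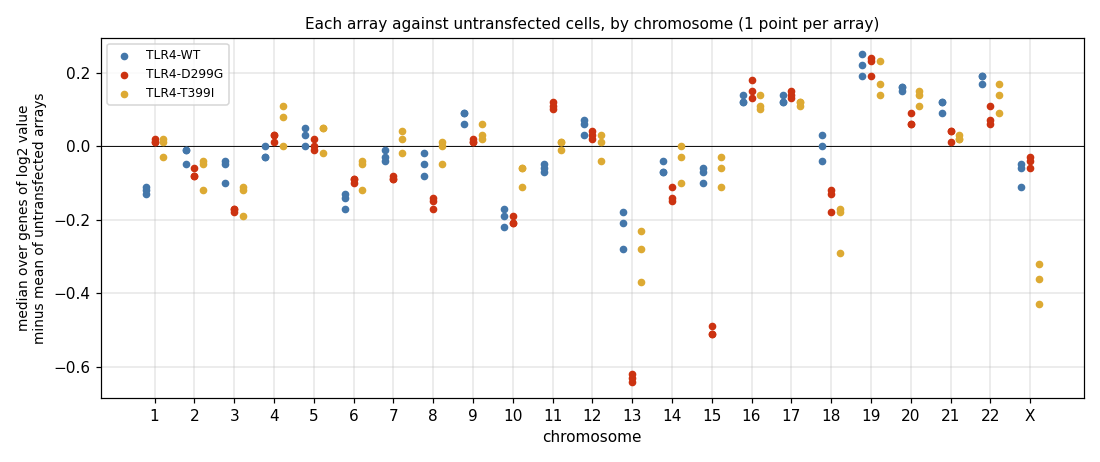
For each chromosome (horizontal axis), the median over its genes of the log2 value on an array minus the mean of the untransfected arrays (vertical axis), with 1 point per array. The D299G arrays stand apart at chromosome 13 (-0.64 to -0.62) and chromosome 15 (-0.51 to -0.49), and the T399I arrays at chromosome X (-0.43 to -0.32).

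Among genes above the median level, runs of neighbours were sought as windows of 15 genes in which at least 12 were called in 1 direction. There were 18 such runs with 503 genes, of which 404 were called in the direction of their run. Of these runs 13 were lower and 5 higher in D299G. With all genes in place of those above the median level, 5 runs were found, of which 2 were on chromosome 13, 1 each on chromosomes 1, 15 and 16 and none on chromosome 11 or X. The run on chromosome 16 (12 of 14 genes higher) ends at MT1X among the metallothioneins. The number of runs also rests on all arrays: it was 9 without WT replicate 2, 11 without WT replicate 1 or 3 or D299G replicate 2 or 3, and 13 without D299G replicate 1. In each of the 12 fits without 1 array, 6 runs were found again: CDX2 to TPT1, RPAP1 to MAPK6, MYO5C to BNIP2, SPG21 to CD276, SPIN4 to ARMCX3 and SLC25A5 to RBMX2. A run counted as found if a run in the same direction shared at least 1 gene with it, so its extent may differ. MPHOSPH8 to CPAP was found in 6 of the 12, and was lost without any single array of the 2 lines compared. The other runs of chromosome 15 were found in 10 (ARID3B to SNX33) and 7 (FBXO22 to MORF4L1, and SEC11A to TICRR) of the 12. Chromosome 15 held 6 lower runs with 145 of 178 genes called, the longest from RPAP1 to MAPK6 (43 of 53 genes, median -0.58), with the channel kinase TRPM7 (-1.05) and the fatty acid carrier SLC27A2 (-0.97) among its members. The largest falls on that chromosome were in ARRDC4 (3.12-fold), PRTG (3.09-fold) and the growth factor receptor IGF1R (2.35-fold; -0.67 on the log2 scale at its other probe set against -1.23). CYP1A1 (1.26) and THBS1 (0.96) on the same chromosome were higher. Chromosome 13 held 2 lower runs, from MPHOSPH8 to CPAP (18 of 22) and from CDX2 to TPT1 (34 of 42, median -0.52), the latter with the forkhead factor FOXO1 (not called, -0.09) and RFC3.

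Chromosome X changed direction along its length. From SPIN4 to ARMCX3, 48 of 59 genes were higher, with a median of 0.51, NOX1 and IL2RG (4.23-fold) among them. From SLC25A5 to RBMX2, 23 of 28 were lower (median -0.51), XIAP (-0.70) among them, and from BCAP31 to LAGE3 13 of 16 were lower (median -0.38), the last found in 8 of the 12 fits without 1 array. In the 59 genes from SPIN4 to ARMCX3 the median against untransfected cells was 0.34, 0.33 and 0.30 on the D299G arrays, -0.13, -0.14 and -0.20 on the WT arrays and -0.57, -0.36 and -0.42 on the T399I arrays. In the lower runs T399I lay with D299G. From SLC25A5 to RBMX2 the medians were -0.59, -0.54 and -0.64 on D299G arrays and -0.58, -0.41 and -0.39 on T399I arrays. WT arrays read -0.08, -0.05 and -0.09 there. From BCAP31 to LAGE3 D299G read -0.21, -0.32 and -0.29, T399I -0.25, -0.27 and -0.31 and WT 0.05, -0.07 and 0.05.

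The remaining runs lay on chromosomes 1, 4, 7, 11 and 20. On chromosome 1, 18 of 24 genes from ARPC5 to CAMSAP2 and 28 of 37 from NSL1 to EPHX1 were higher, the second with PROX1, SLC30A10 and CENPF. CENPF lost its call without WT replicate 1 or D299G replicate 3 (adjusted p 0.0582 at most). In that run WT lay 0.55 below untransfected cells at the median and D299G 0.10 below. T399I was above WT too in these chromosome 1 runs, by 0.33 (ARPC5 to CAMSAP2) and 0.32 (NSL1 to EPHX1) at the median. On chromosome 11 the runs were RAB30 to CTSC (13 of 16) and PPP2R1B to PCSK7 (23 of 29, with APOA1, APOA4, APOC3, CADM1 and TAGLN). Lower runs of 16 to 19 genes lay on chromosomes 4 (SHROOM3 to SEC31A), 7 (TFEC to RBM28, with CFTR and AASS) and 20 (MANBAL to DHX35). Against untransfected cells, D299G and WT medians were -0.58 and -0.10 on chromosome 4 and -0.68 and -0.29 on chromosome 7. On chromosome 20 they were -0.07 and 0.23, so there WT lay further from untransfected cells. The chromosome 20 run includes the non-coding RNA genes SNHG17, SNORA71A, SNORA71C, SNORA71D and SNORA60. The runs of this paragraph were found in 2 (RAB30 to CTSC), 3 (MANBAL to DHX35), 5 (SHROOM3 to SEC31A), 7 (PPP2R1B to PCSK7), 9 (ARPC5 to CAMSAP2) and 10 (TFEC to RBM28, and NSL1 to EPHX1) of the 12 fits without 1 array. RAB30 to CTSC and MANBAL to DHX35 were lost without any single WT or D299G array. DNA copy number was not measured here, and its part in these runs was not tested.

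**Figure D4:**
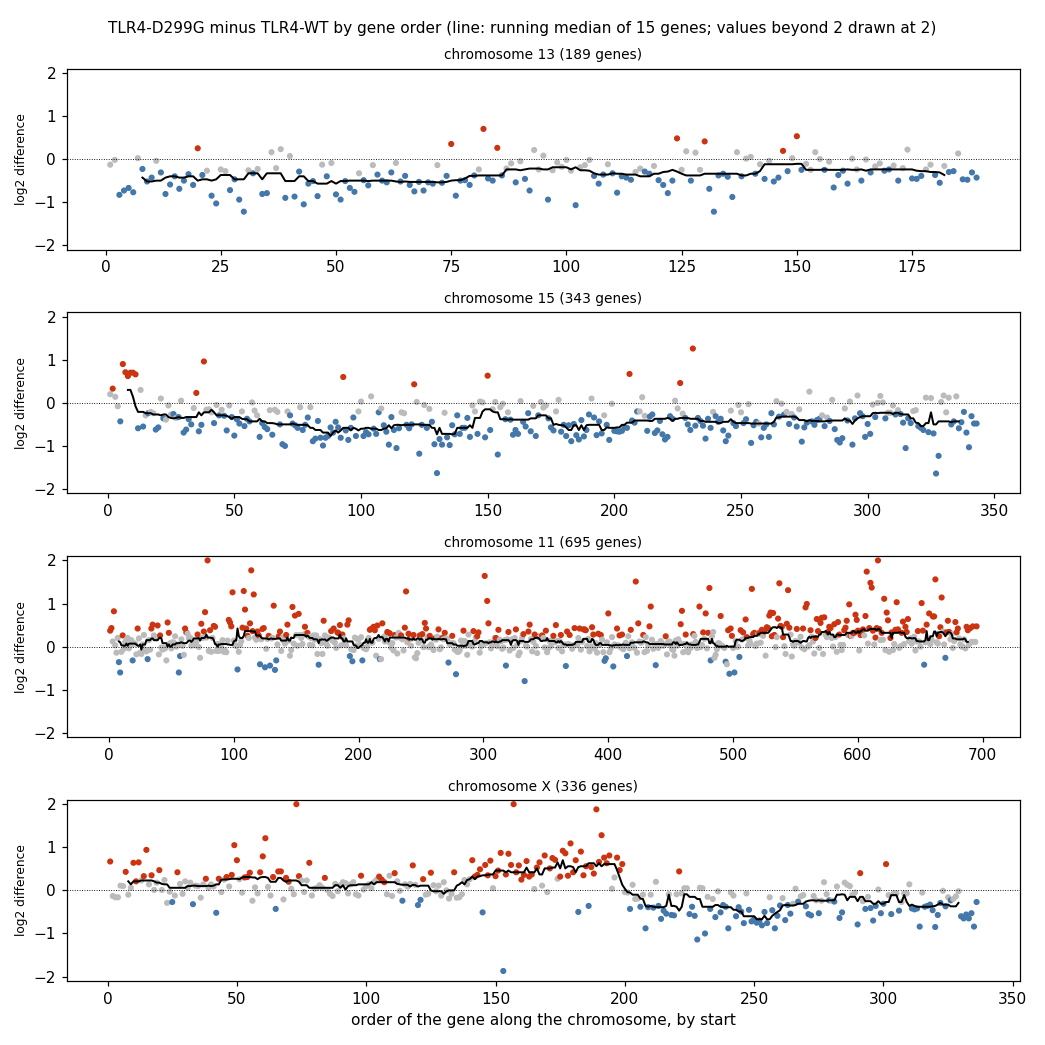
Log2 difference of D299G minus WT (vertical axis) for genes in their order along chromosomes 13, 15, 11 and X (horizontal axis), with red for called higher, blue for called lower, grey for not called and a line for the running median of 15 neighbours. The line stays below 0 along chromosome 13 and most of chromosome 15, and on chromosome X it passes from above 0 to below 0 past ARMCX3.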

How the data were processed

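The values are log2 expression per probe set, deposited by the authors after RMA (background correction, quantile normalisation and summarisation) in Affymetrix Expression Console 1.0, per the submitters' processing notes. Of 33297 probe sets, 19460 had 1 gene symbol in the platform annotation, 1754 several and 12083 none. Each of 18417 genes was represented by its single-symbol probe set with the highest mean over 12 arrays (769 had more than 1). Of the genes named in the text 14 had more than 1 probe set, and in 0 of these the probe sets differed in sign.

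A group-means model was fitted to all 12 arrays in limma 3.58.1 (R 4.3.3) with empirical Bayes moderation (no trend, not robust), so the 4 groups share 1 estimate of the spread with 8 residual degrees of freedom. P-values were adjusted over all probe sets by Benjamini-Hochberg and called under 0.05. The script was tested on simulated data. Named were TLR4, LY96 and CD14, the largest called rises and falls without overlap of arrays, members of 50 gene lists by size of change or by role, and members of runs. The members and lists were chosen with earlier results of these data known. Gene order and promoters came from RefSeq (GRCh38.p14), which holds 18392 of the symbols; the array's own coordinates were not used. With 3 arrays a group, their number limits the precision. Alternatives changed the model, scaling, filter, arrays and probe set rule, and the closing section gives their effect.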

Additional observations from a re-analysis of the deposited data

How the results depend on the processing

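Across the alternatives the number of probe sets called lay between 4161 and 6327, against 5618 as reported. Leaving out 1 array gave 4161 to 5905 probe sets, 412 to 485 with at least 2-fold change, 3230 to 4474 genes, 9 to 19 runs, and medians of 0.10 to 0.11 on chromosome 1, 0.15 to 0.16 on chromosome 11, -0.37 to -0.35 on chromosome 13 and -0.43 to -0.42 on chromosome 15. With probe sets above the median level alone, 291 in place of 440 had at least 2-fold change, since fewer were tested. Centring the arrays gave 0.11 on chromosome 1 and 2399 higher against 2426 lower probe sets. With all genes in place of those above the median level, the chromosome medians were 0.07 (1), 0.07 (11), -0.16 (13) and -0.17 (15), and 5 runs in place of 18 were found (none on chromosome 11 or X); windows of 10 and 20 genes gave 37 and 11. The cause was not tested. With the replicate number as a block, 5733 probe sets, 438 with at least 2-fold change and 4299 genes were called. Same-numbered arrays of the 2 lines did not deviate together (correlations -0.01, -0.08 and 0.01). No pairing by number was seen, although so few arrays cannot exclude it. Without genes of chromosomes 13 and 15, 3854 genes were called (2049 higher); this, the chromosome alternatives and the other fits for runs were chosen after seeing the data. Of 5905 values of named genes under alternatives, 5753 kept their side of the threshold, 126 lost it (25 genes), 26 gained it (6 genes) and 0 reversed. Of the values that kept their side, 259 came from leaving out genes of chromosomes 13 and 15, which reuses the reported fit and could not differ. The sign of a difference could change only where arrays of the 2 lines were left out, arrays were centred or probe sets were averaged. Of 2000 list counts, 102 moved by over 1.5 times. Low signals limit folds of genes near the bottom of the scale.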
